A study of Mus musculus with 7 samples.

Results

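Protocadherins are cadherin-like adhesion proteins of the cell surface, and 6 genes of the family are described here in the ileum of mice given low-dose penicillin: Pcdh19, Pcdh17, Pcdh18, Pcdh1, Pcdh7 and Pcdh9. They were taken as every probe set that the array's annotation assigns to 1 of these genes alone, which gave 15 probe sets of the 34945 that name a single gene, and 6 of 18193 genes. The series compared the terminal ileum, where the small intestine ends, in male C57BL6J mice aged 8 weeks. The control group held 3 mice that had no antibiotic, and the penicillin group held 4 mice that had penicillin at 6.7 mg/L from birth. Mice of both groups were weaned at 4 weeks onto chow and from 6 weeks on took 45% of their energy as dietary fat. The labels call the samples biological replicates and do not give litter or cage, so a cage difference and penicillin cannot be told apart. Values are log2 expression per probe set, and a difference is the penicillin mean less the control mean. Its standard error (SE) comes from a limma fit, over all 34945 probe sets for these 6 genes. For all other genes it comes from the fit over the 14590 genes tested.

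Members of the delta group of protocadherins span the membrane once, bind like molecules on the neighbouring cell through their outer cadherin repeats and carry conserved motifs in the inner tail. Pcdh1, Pcdh7 and Pcdh9 belong to the delta-1 branch, and Pcdh17, Pcdh18 and Pcdh19 to the delta-2 branch, several of whose members bind the WAVE complex, which drives branching of actin filaments. Most of what is known of them comes from the nervous system, where they help to sort and connect neurons. In gut they can be made by neurons, glia, mesenchymal cells, vessels or epithelium, and whole tissue as measured here does not separate these.

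Pcdh19 was chosen by its measured difference between penicillin and control mice in these same data, and the set was put together around it. The values below are therefore a description without a test. The other genes came in as relatives. Across all genes limma passed 13 of 14590 at a Benjamini-Hochberg adjusted p under 0.05, which is 0.0891%, with 1 higher (0.00685%) and 12 lower (0.0822%). The 1 higher gene was Pcdh19, and nothing is read from that count here. It was the only member of the 6 that passed. It was called in 9 of 17 alternative settings and in 1 of the 7 fits that left out a mouse, the one without penicillin replicate 2. It was not called with its probe sets averaged or with the replicate number as a block. These calls rest on the values that chose Pcdh19, so nothing is read from them for or against it.

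Pcdh19, a delta-2 protocadherin known from neural development and, in humans, from an epilepsy linked to the X chromosome, had 3 probe sets. Probe set 1455145_at, the one with the highest mean, read 6.56, 6.59 and 6.52 in the 3 control mice. In the 4 penicillin mice it read 7.24, 7.29, 7.43 and 7.50. The control mice lay within 0.069 of each other, the penicillin mice within 0.26, and the lowest penicillin mouse was 0.66 above the highest control mouse. The group means were 6.55 ± 0.035 (SD, n = 3) and 7.37 ± 0.12 (SD, n = 4), a difference of 0.81 ± 0.073 (SE), or 1.76-fold.

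Probe set 1437360_at of Pcdh19 showed the same split. It read 6.34, 6.19 and 5.82 in control mice and 7.16, 6.92, 7.11 and 7.21 in penicillin mice. All penicillin mice again lay above all control mice, by at least 0.58, while control replicate 3 was the lowest of the 7. The means were 6.12 ± 0.27 (SD, n = 3) and 7.10 ± 0.13 (SD, n = 4), and the difference was 0.99 ± 0.13 (SE), or 1.98-fold. Without control replicate 3 it was 0.84, and that of 1455145_at was 0.79.

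The third probe set, 1444422_at, did not show the split. It read 4.30, 3.92 and 4.19 in control mice and 4.27, 3.95, 4.19 and 4.19 in penicillin mice, so the groups overlapped. Its difference was 0.012 ± 0.11 (SE). Its mean lay under log2 4.24, the 25th percentile of all probe sets and the limit below which genes were not tested, whereas the other two probe sets lay above it. RMA gives no detection call, so whether this probe set measured its transcript at all was not tested. With the 3 probe sets averaged, Pcdh19 differed by 0.60.

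Of the 15 probe sets, 2 had groups that did not overlap with penicillin higher, both of Pcdh19, and 0 had penicillin lower. Over all 34945 probe sets the share was 3.77% higher and 3.96% lower. Ordered by the gap between the lowest penicillin and the highest control mouse, 1455145_at and 1437360_at stood at places 2 and 3 of the 34945, and ordered by difference at places 36 and 19. These places describe the values that led to the choice of the gene.

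**Figure D1:**
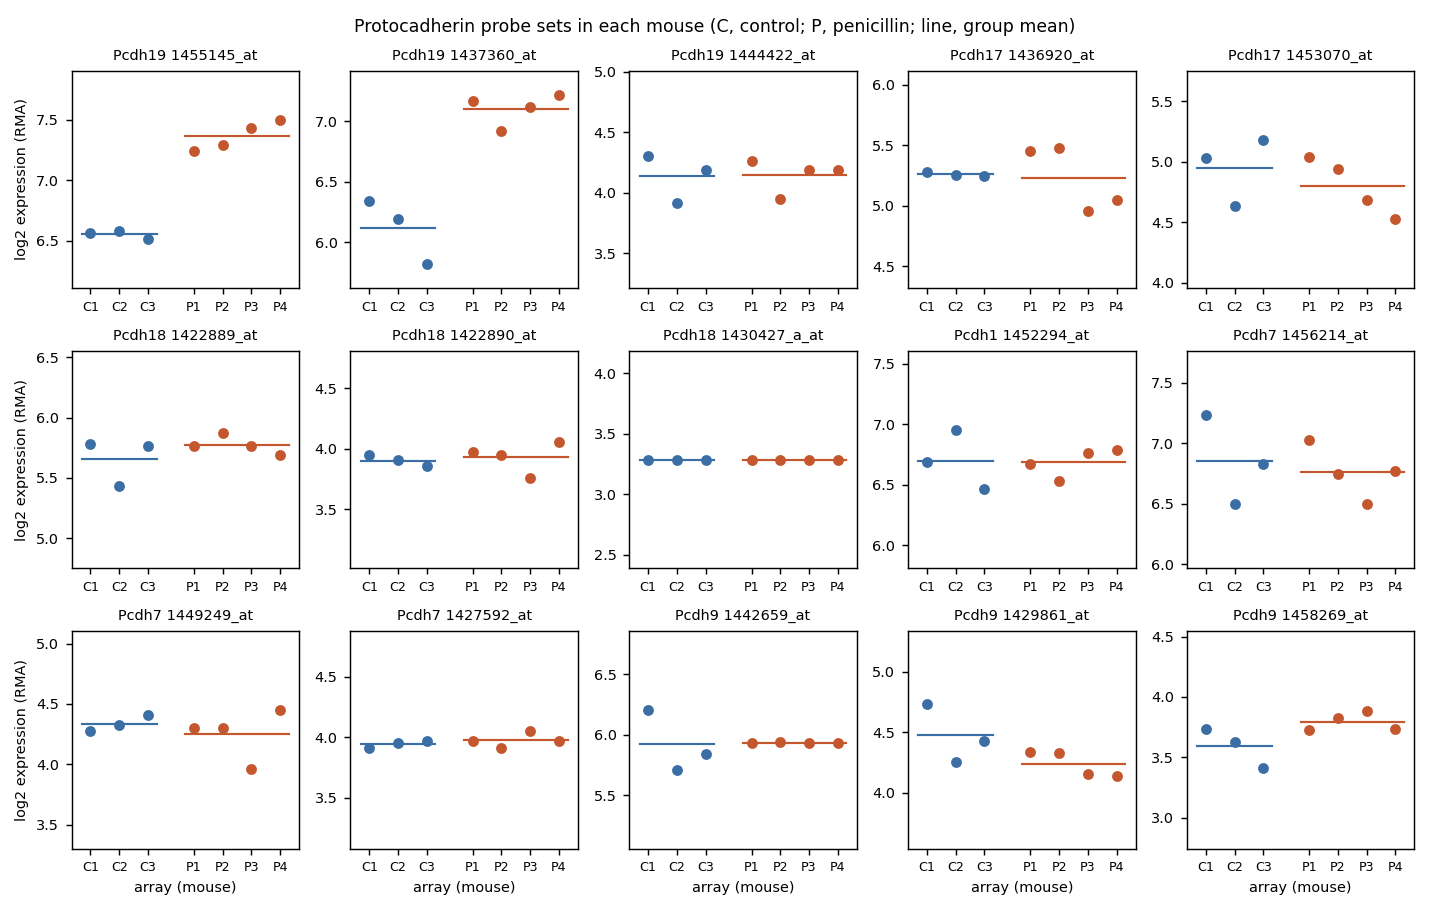
Each panel plots the log2 expression of 1 probe set (vertical axis, each panel spanning the same log2 range) in the 3 control mice (blue) and the 4 penicillin mice (orange), with a line at each group mean. The groups are apart in the first and second Pcdh19 panels, at 6.52 to 6.59 against 7.24 to 7.50 and at 5.82 to 6.34 against 6.92 to 7.21, and overlap or coincide in the other 13.

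The deposited values of many probe sets are exactly equal in several arrays. To 6 decimals, 56.5% of the probe sets had at least 2 arrays at the same value, and so did 8 of the 15 described here. For these the spread between mice is in part a spread between repeated values, which makes an SD or SE hard to read. Neither 1455145_at nor 1437360_at had a repeated value. In 1444422_at the value 4.19 was shared by control replicate 3 and penicillin replicates 3 and 4.

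Pcdh17, the delta-2 relative known for its part in arranging synapses, had 2 probe sets over the limit. Probe set 1436920_at read 5.28, 5.26 and 5.25 in control mice and 5.46, 5.48, 4.95 and 5.04 in penicillin mice. The control mice lay within 0.033 of each other, and the penicillin mice lay on both sides of them, replicates 1 and 2 above and replicates 3 and 4 below. The group difference was -0.027 ± 0.14 (SE). Probe set 1453070_at read 5.03, 4.64 and 5.18 in control mice and 5.04, 4.94, 4.68 and 4.53 in penicillin mice, a difference of -0.15 ± 0.16 (SE). Here too penicillin replicates 1 and 2 were above replicates 3 and 4. Mean levels of the enteric glia, neuron, smooth muscle, enteroendocrine and lymphocyte markers were also higher in penicillin replicates 1 and 2 than in 3 and 4. So were those of fibroblasts and interstitial cells of Cajal. The enterocyte, endothelial, macrophage, mesothelial and colon lists did not show this order. For the 6 glia markers the mean levels were 6.52 and 6.46 against 6.35 and 6.30. In that list S100b and Erbb3 did not follow the split, nor did Cdh19, with penicillin replicates 2 and 4 both at 4.87. Several neuron markers, such as Vip, did not follow it either. The part of these cell types in the Pcdh17 values was not tested.

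Pcdh18, a delta-2 protocadherin whose tail binds the adaptor Dab1, had 3 probe sets, 1 of them over the limit. That one, 1422889_at, read 5.78, 5.43 and 5.76 in control mice and 5.76, 5.87, 5.76 and 5.69 in penicillin mice. Only control replicate 2 stood below the rest, and the difference was 0.11 ± 0.093 (SE). Without control replicate 2 it was 0.00088. Probe set 1422890_at lay between 3.76 and 4.06 and differed by 0.033 ± 0.076 (SE). Probe set 1430427_a_at was listed at 3.29 in all 7 arrays, as happened in 11 of the 34945 probe sets, and so gave no information on the groups.

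Among the delta-1 genes, Pcdh1, known from airway and other epithelia, had a single probe set, 1452294_at. It read 6.69, 6.96 and 6.46 in control mice and 6.67, 6.53, 6.77 and 6.79 in penicillin mice. Control mice held both the highest and the lowest value, and the difference was -0.011 ± 0.12 (SE). Pcdh7, whose tail binds the phosphatase PP1, had 3 probe sets. The highest, 1456214_at, read 7.23, 6.49 and 6.83 in control mice and 7.03, 6.75, 6.49 and 6.77 in penicillin mice, with a difference of -0.093 ± 0.18 (SE). Control replicate 1 was the highest mouse there, as it was in the mean level of 10 enteric neuron markers (7.35, against 6.78 to 7.14 in the others) and of 8 smooth muscle markers (11.18, against 10.55 to 11.08). Whether these markers play a part in the Pcdh7 values was not tested. The other Pcdh7 probe sets, 1449249_at and 1427592_at, differed by -0.083 ± 0.11 and 0.031 ± 0.054 (SE), and the second lay under the limit.

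Pcdh9, a delta-1 protocadherin best known from brain, had 3 probe sets that did not point one way. Probe set 1442659_at read 6.21, 5.71 and 5.84 in control mice and 5.93, 5.94, 5.93 and 5.93 in penicillin mice. The penicillin mice lay between the control mice, and the difference was 0.014 ± 0.11 (SE). Probe set 1429861_at read 4.74, 4.26 and 4.43 in control mice and 4.34, 4.33, 4.16 and 4.14 in penicillin mice. Its groups overlapped through control replicate 2, and its difference was -0.23 ± 0.11 (SE). In 1458269_at, under the limit, control mice read 3.74, 3.63 and 3.41 and penicillin mice 3.72, 3.83, 3.88 and 3.74. That probe set differed in the other direction, by 0.20 ± 0.085 (SE), and its groups overlapped by 0.011 only.

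Over the 12 probe sets of the 5 relatives, 5 had a higher mean in penicillin mice, 6 a lower one and 1 was constant, within a range of -0.23 to 0.20. In 0 of them were the groups apart. When each mouse was left out in turn, 6 of the 12 changed sign and 5 kept it. The 3 Pcdh19 probe sets gave 0.77 to 0.85 for 1455145_at, 0.84 to 1.10 for 1437360_at and -0.097 to 0.096 for 1444422_at.

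**Figure D2:**
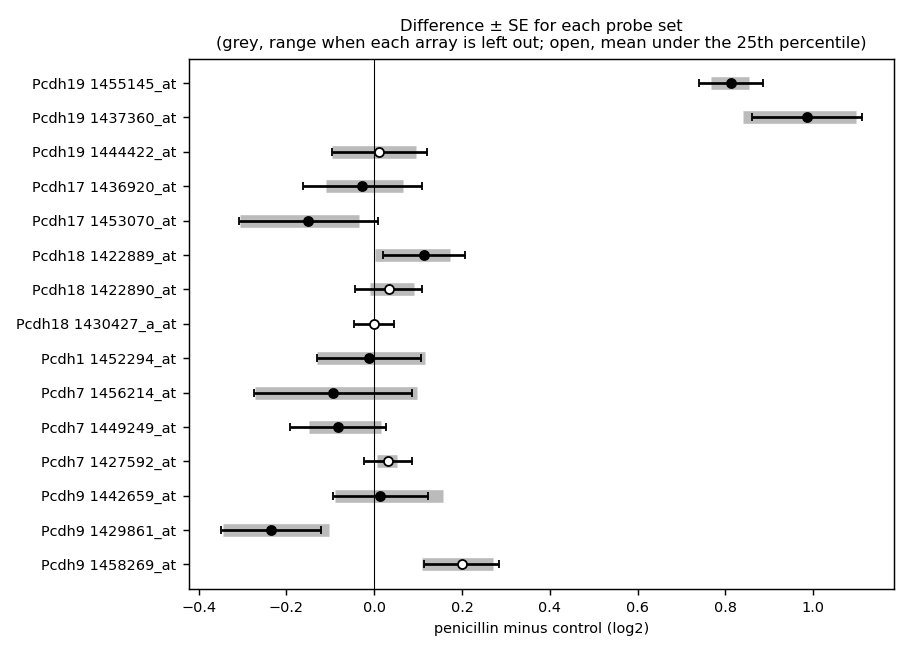
Points are the difference in log2 expression, penicillin minus control, of each of the 15 probe sets, with a bar of 1 SE, and grey bands span the values when each array is left out in turn. Open points have a mean under the 25th percentile; 2 Pcdh19 probe sets sit at 0.81 and 0.99, and the other 13 lie between -0.23 and 0.20.

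The pattern of 1455145_at over the 7 mice was set against the others. After each probe set was centred on its own mean, the root mean square distance to 1437360_at was 0.17 on the log2 scale, an order that the group difference fixes. From 1455145_at to the probe set of highest mean of each relative it was 0.38 for Pcdh18, 0.43 for Pcdh1, 0.43 for Pcdh9, 0.49 for Pcdh17 and 0.53 for Pcdh7. For the constant Pcdh18 probe set 1430427_a_at it was 0.41, so a probe set without any variation gives a distance of that size. The median over all other tested genes was 0.43. With values centred within each group, which removes the difference that chose Pcdh19, the distance between 1455145_at and 1437360_at was 0.15, and the median over genes was 0.12. Several relatives were then nearer to 1455145_at than 1437360_at was, among them Pcdh7 1427592_at at 0.075, Pcdh9 1458269_at at 0.11, Pcdh18 1422890_at at 0.11 and Pcdh1 1452294_at at 0.13. The constant Pcdh18 probe set 1430427_a_at, which holds no pattern, was nearer as well, at 0.081. A small distance can thus come from little spread, so these distances of the relatives are not read as a shared pattern.

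The 5 tested genes nearest to 1455145_at were Fras1 (0.12), 1700016C15Rik (0.13), Ptgr1 (0.14), Sowaha (0.15) and Dusp12 (0.16), over 7 mice. Fras1 encodes a basement membrane protein, Ptgr1 an enzyme that inactivates eicosanoids and Dusp12 a phosphatase. Being nearest fixes their direction, and they differed by 0.73 for Fras1, 0.68 for 1700016C15Rik, 0.59 for Ptgr1, 0.61 for Sowaha and 0.60 for Dusp12. In Fras1 the control mice read 5.59, 5.26 and 5.24 and the penicillin mice 5.95, 6.04, 6.26 and 6.15. Centred within the groups, the nearest were Exoc8, Ccdc162, Ranbp9, Rabep1 and Msra, at distances of 0.016 to 0.022. Of these the largest group difference was that of Msra, at 0.11, and 0 genes were in both sets of 5.

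**Figure D3:**
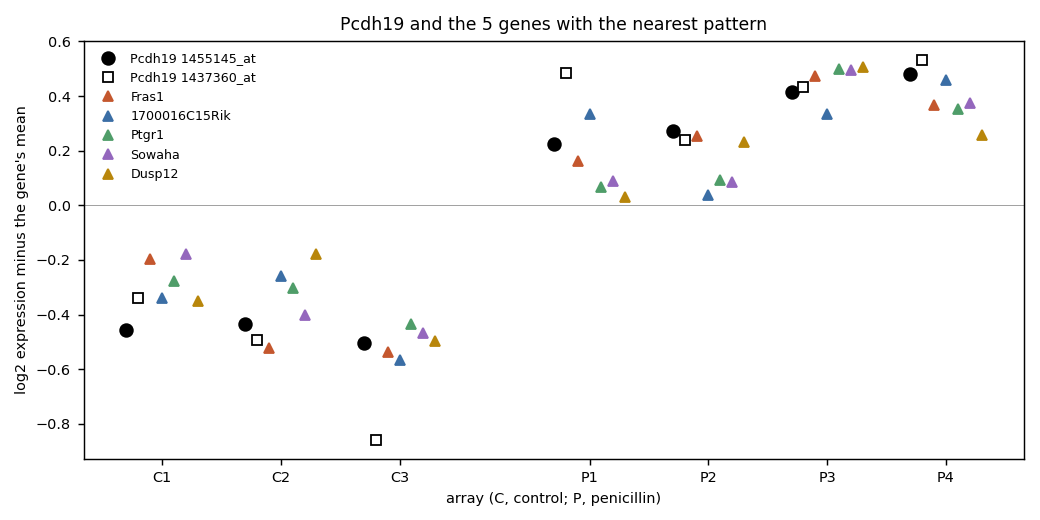
Log2 expression minus each gene's own mean over the 7 arrays is plotted for both higher Pcdh19 probe sets (black) and for the 5 genes nearest to 1455145_at (coloured triangles), in control (C) and penicillin (P) mice. All 7 series lie below 0 in the control mice and above 0 in the penicillin mice, as choosing genes for their nearness to Pcdh19 brings about.

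Pcdh19 lies on the X chromosome, and the levels of its neighbours were read in the order of the RefSeq table (GRCm38.p6), a comparison chosen after the data had been seen. The 5 nearest tested genes on one side, Dach2, Klhl4, Nap1l3, Cldn34c1 and Diaph2, and the 5 on the other, Tspan6, Srpx2, Sytl4, Cstf2 and Trmt2b, differed by -0.14 to 0.097. The adjoining genes were Diaph2, a formin, at 0.0083 ± 0.061 and Tspan6, a tetraspanin, at -0.015 ± 0.078 (SE). In limma 0 of these 10 neighbours passed over all genes, and 0 had an unadjusted p under 0.05. Of all tested genes 0.0891% passed, and 4.38% (higher) and 6.07% (lower) had such a p. Of 416 genes of the X chromosome tested, 1 passed, and their median difference was -0.010. That gene was Pcdh19, which was chosen by this difference, so nothing is read from the count. Xist, which only female cells transcribe strongly, lay between 4.65 and 5.06 in all 7 male mice.

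**Figure D4:**
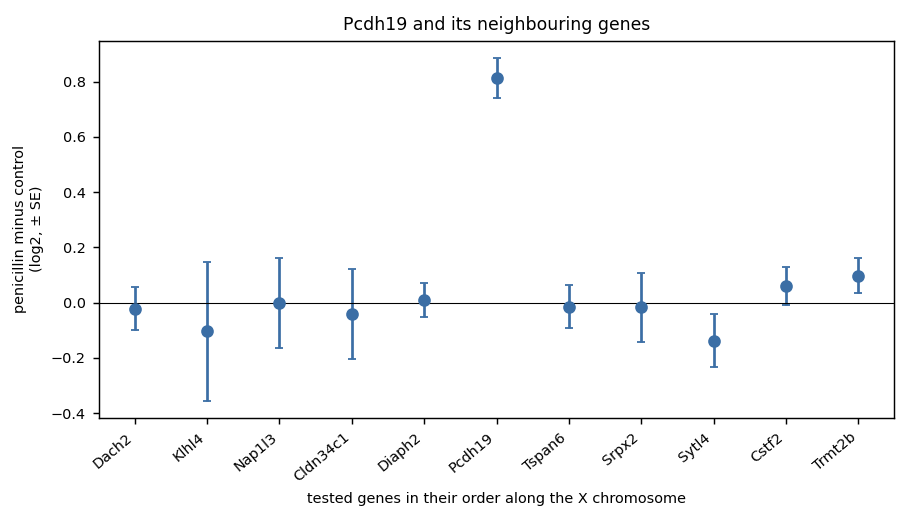
The difference in log2 expression, penicillin minus control, is plotted for Pcdh19 and for the 5 tested genes on each side, placed by order and not by distance. Bars are 1 SE from the fit over 14590 genes. Pcdh19 stands at 0.81 and the 10 neighbours lie between -0.14 and 0.097.

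The rest of the cadherin superfamily, with the catenins, the WAVE complex and reported partners of the members, made lists of 142 genes, of which 99 had a probe set of their own and 66 were tested. None passed in limma over all genes (smallest adjusted p = 0.371). At an unadjusted p under 0.05, 2 were higher and 5 lower, where 4.38% and 6.07% of all tested genes were. Their median difference was 0.024, beside -0.011 over all genes. The groups were apart in 4 higher and 3 lower genes, beside 4.24% and 5.70% of all tested genes.

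Among the other protocadherins outside the gene clusters, 4 of 6 were tested, and all 4 had higher values, with a median of 0.10. Pcdh8, a delta-2 relative involved in synaptic adhesion, read 5.90, 5.93 and 6.21 in control mice and 6.20, 6.20, 6.39 and 6.24 in penicillin mice. The groups overlapped through control replicate 3, and the difference was 0.24 ± 0.090 (SE, limma adjusted p = 0.436). With array quality weights Pcdh8 passed (limma adjusted p = 0.0405), as 1 of the 66, in a setting where 402 of all 14590 genes, or 2.76%, passed. Pcdh10, Pcdh12 and Pcdh20 differed by 0.078, 0.065 and 0.13, and the groups overlapped in each of them. Pcdh12 had the same value, 5.19, in control replicate 2 and penicillin replicates 2, 3 and 4. Pcdh10 had the same value, 4.32, in control replicate 2 and penicillin replicates 2 and 4, near the limit of log2 4.24. The clustered protocadherins, which give neurons distinct surface identities, had 23 of 58 genes with a probe set of their own, of which 5 were tested. Pcdhb5 had the largest difference of these, at 0.23 ± 0.092 (SE, limma adjusted p = 0.452).

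Of 16 classical and type II cadherins 9 had higher and 7 lower values, with a median of 0.0058. Cdh1, E-cadherin of the epithelial junction, read 12.87, 12.89 and 12.86 in control mice and 12.98, 12.92, 12.97 and 12.95 in penicillin mice, a difference of 0.080 ± 0.046 (SE). Cdh19, a cadherin of glia, had the largest difference of the list, at -0.32 ± 0.23 (SE, limma adjusted p = 0.604), and control replicate 3 was its highest mouse, at 5.73. Without that mouse it differed by -0.024. Cdh2, N-cadherin, which forms a complex with Pcdh19, differed by -0.069 ± 0.24 (SE). Dsg2 and Dsc2, the desmosomal cadherins of gut epithelium, differed by 0.13 and 0.10.

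Of 14 atypical cadherins 7 had higher and 7 lower values, or 5 and 9 without control replicate 3. Celsr1, a planar polarity receptor, read 6.38, 6.43 and 6.22 in control mice and 6.15, 5.67, 5.88 and 6.11 in penicillin mice, so that all penicillin mice were below all control mice. It differed by -0.39 ± 0.12 (SE, limma adjusted p = 0.378). Cdhr2 and Cdhr5, the protocadherins that link the tips of brush border microvilli, differed by 0.27 ± 0.23 and 0.18 ± 0.22 (SE). Both were lowest in control replicate 3, at 11.66 and 10.45, against 12.49 to 12.73 and 11.13 to 11.41 in the other mice. Without it the differences turned to -0.053 for Cdhr2 and -0.14 for Cdhr5.

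Of the inner partners, 10 catenins lay between -0.096 (Ctnnal1) and 0.087 (Ctnnb1). In the WAVE complex 5 of 10 genes had higher and 5 lower values. Cyfip2, a WAVE subunit also made by lymphocytes, differed by -0.53 ± 0.19 (SE, limma adjusted p = 0.422). It read 5.92, 5.98 and 6.34 in control mice and 5.82, 5.82, 5.16 and 5.39 in penicillin mice. Nckap1l, the form of the Nckap1 subunit made by blood cells, differed by -0.21 ± 0.088 (SE). Abi2, Wasf1 and Abi3 were also lower, by -0.13, -0.10 and -0.036. Nckap1, Abi1, Wasf2, Wasf3 and Brk1 differed by 0.072, 0.091, 0.099, 0.13 and 0.0028. The part of blood cells in these values was not tested. Dab1, which binds Pcdh18, differed by 0.18 ± 0.16 (SE), the largest difference among the 6 reported partners tested.

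**Figure D5:**
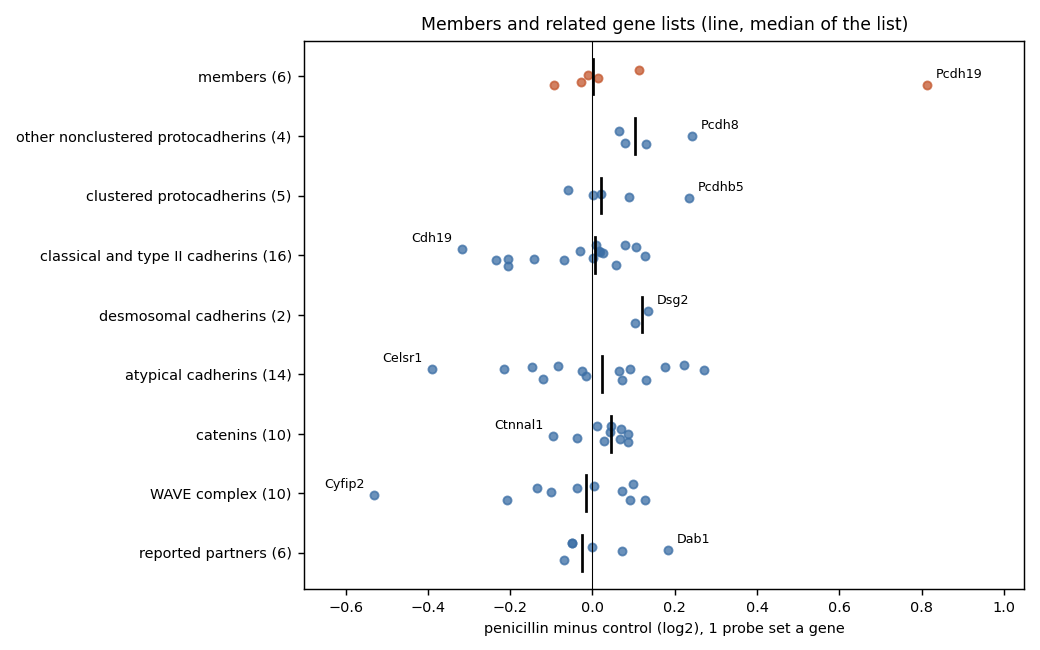
Each point is 1 tested gene, placed by its difference in log2 expression, penicillin minus control, for the 6 genes described (orange) and 8 related lists (blue), with the number of genes in brackets and a line at the median. The gene farthest from 0 is named in each list; Pcdh19 is at 0.81, and the related genes lie between -0.53 (Cyfip2) and 0.27 (Cdhr2, which turns to -0.053 without control replicate 3).

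The mean levels of the cell type marker lists are described for each group without a test. The 8 enterocyte markers tested had a median difference of 0.47, from 0.085 (Epcam) to 0.90 (Apoa4), and a mean level of 11.28 to 11.85 in control and 11.79 to 12.49 in penicillin mice. In Apoa4 penicillin replicate 1, at 9.96, was below control replicates 1 and 2, at 10.30 and 10.66. Lct read 7.47 in penicillin replicate 3 and 4.36 to 5.11 in the other mice. Control replicate 3 had the lowest mean level of the list. All 8 were higher with it, and without it 7 were, at a median of 0.21, with Vil1 at -0.023. The 10 enteric neuron markers had lower values with and without that mouse (median -0.23, from -0.57 for Vip to -0.049 for Nos1), at a mean level of 6.84 to 7.35 against 6.78 to 6.92. So had the 8 smooth muscle markers (median -0.16, from -0.23 for Smtn to -0.034 for Actg2), at 10.88 to 11.18 against 10.55 to 11.08.

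The 8 endothelial markers were lower in both settings as well (median -0.20, from -0.44 for Emcn to -0.067 for Kdr), at 6.34 to 6.55 against 6.04 to 6.28. The 6 lymphocyte markers lay between -0.44 (Ptprc) and -0.00094 (Cd4), with mean levels of 6.06 to 6.21 against 5.86 to 5.95. Without control replicate 3, 1 of the 6 was higher, at a median of -0.21. Mean levels of the endothelial and lymphocyte lists did not overlap between the groups, while those of the other marker lists did. Among single genes tested, 5.70% had groups apart with penicillin lower. No such share was worked out for means of lists, so nothing is read from these 2. Of 8 enteroendocrine markers 7 had higher values, or all 8 without control replicate 3, from -0.015 (Chga) to 0.27 (Neurod1). The 6 glia markers lay between -0.32 (Cdh19) and 0.12 (Erbb3), and 5 of 6 were higher, or 3 without control replicate 3. Among them Gfap and Foxd3 had control means of 4.53 and 4.46, near the limit of log2 4.24. Erbb3 read 12.00 to 12.49, and which cells gave its signal was not tested. Macrophage markers ran from -0.35 (C1qa) to 0.048 (Cd68). Fibroblast markers ran from -0.23 (Dcn) to 0.065 (Col1a1), with 6 of 8 lower, a count that turned to 7 of 8 higher without control replicate 3. Mesothelial markers ran from -0.31 (Wt1) to 0.049 (Lrrn4), with 2 of 4 higher and a median of -0.031. Without control replicate 3, 3 of these 4 were higher, at a median of 0.17. Both markers of interstitial cells of Cajal, Kit and Ano1, were at -0.10 and -0.070 and turned higher without that mouse.

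No marker passed in limma over all genes. At an unadjusted p under 0.05, 3 of the 77 tested were higher and 9 lower, beside 4.38% and 6.07% of all genes. The part of these cell types in the Pcdh19 difference was not tested. In whole tissue, fewer cells of a type and less RNA per cell cannot be told apart.

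The arrays correlated with each other at r = 0.992 to 0.998 across probe sets, and Fabp6, the bile acid carrier of the ileum, was between 14.28 and 14.64 in all mice. Of the 4 colon markers tested, control replicate 3 was highest in Car1, at 14.10, and in Aqp8, at 8.27 against 3.86 to 4.29. In Car1 penicillin replicate 1 came next, at 10.82, and the remaining mice read 5.11 to 7.63. In Slc26a3 control replicate 3, at 11.47, was below penicillin replicates 3 and 4, at 11.57 and 11.56. In Hoxd13, at 4.30, control replicate 3 was the lowest mouse. The tissue label is terminal ileum, whereas the text on animal growth names livers.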

How the data were processed

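The deposited values are log2 expression per probe set of Affymetrix mouse arrays, made with RMA and affy per the submitters' processing notes. RMA corrects background, equalises the arrays and summarises probes by a robust fit. Their versions, and a build, were not given in the sources used here. Values lay between 2.50 and 14.7, with array medians of 5.43 to 5.45. The number of arrays limits the precision.

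Of 45101 probe sets, 34958 had 1 gene in the platform annotation of 2016, 932 several and 9211 none. Without controls, 34945 remained, of which 34741 matched RefSeq by gene ID. Probe sets measure with unequal strength, so levels of different probe sets were not compared. Differences of the members came from limma 3.58.1 (R 4.3.3; lmFit, eBayes, two-sided) over all 34945. Gene tests used the probe set of highest mean, kept if over the 25th percentile of the probe sets (log2 4.244), which left 14590 genes. The fit was tested on simulated data.

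The members and lists were chosen with earlier results of these data known. By rule the text names every member probe set, called genes of the related lists, the largest difference of each of them, the highest and lowest marker of each cell type list, and the 5 genes nearest to Pcdh19. Cdh1, Cdh2, Dsc2, Cdhr2, Cdhr5, Nckap1l, Nckap1, Abi1, Wasf2, Pcdh10, Pcdh12, Pcdh20, S100b, Vil1, Slc26a3, Xist and the neighbours were named after their values were seen. So were Abi2, Abi3, Wasf1, Wasf3, Brk1, Lct, Gfap and Foxd3. Replicate numbers did not pair the samples. Figures used matplotlib 3.10.9 in Python 3.11.15.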

Additional observations from a re-analysis of the deposited data

Results flagged for a closer look

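In Pcdh9 probe set 1442659_at, penicillin replicate 2 stood apart from the other 3 penicillin mice, at 5.942. Those 3 mice had the identical value of 5.933, so the gap was only 0.0091. Without repeated values, chance flags about 1 in 20 groups of this size, and 15 probe sets were looked at. A group with 3 equal values and 1 unlike value is always flagged, so that rate does not hold here. Of the 34945 probe sets, 2646 had 3 or more penicillin arrays at the same value.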

How the results depend on the processing

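The count of 13 called genes was 7 with the probe sets of a gene averaged, 402 with array quality weights and 40 at an adjusted p threshold of 0.1. With the replicate number as a block it was 0, and Pcdh19 was among those lost in 8 of the 17 settings. Over the fits that left out 1 mouse it ran from 0 to 15. Same-numbered samples deviated with correlations of -0.16, 0.012 and -0.40, and penicillin replicate 4 has no partner, so the block is only a number. Among the 66 related genes 0 were called in every setting but array quality weights, with 1, Pcdh8. Averaging the 3 probe sets moved Pcdh19 from 0.81 to 0.60. In the other settings 1455145_at lay between 0.77 and 0.85 and 1437360_at between 0.84 and 1.10. The quantile normalisation, the centring on medians, the other filters and the intensity trend gave 11 to 13 calls. The filter at the 25th percentile of genes was chosen after seeing the data. Values near the bottom of the scale cannot be told from background.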
